A study of Mus musculus with 9 samples.

Results

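The alpha and beta globin genes of the mouse were followed on 9 arrays of transduced bone marrow cells. Members were all transcript clusters (probe sets summarised into 1 value for a gene or locus) whose array annotation holds Hba-a1, Hba-a2, Hba-x, Hbb-y, Hbb-bh1, Hbb-bt, Hbb-bs, Hbb-b1 or Hbb-b2. All 9 symbols were found, in 7 of the 21072 clusters. Of the 7, 3 hold a single symbol (Hba-x, Hbb-y and Hbb-bh1, the embryonic genes) and 4 are shared by adult genes, so adult values belong to gene pairs or groups and not to single genes. The cells came from C57BL/6 females aged 8 weeks that had all received 5-fluorouracil, a drug that kills dividing cells, at 150 mg/kg 6 days before marrow was taken. Cells sorted as Lin-, Sca+ and Kit+ were infected with a retrovirus that carried GATA2 wild type and EGFP (3 arrays), GATA2 R396Q and EGFP (3 arrays) or EGFP alone (MIE, here empty vector, 3 arrays), and green cells were sorted after 72 h of culture. GATA2 is a DNA-binding protein that early blood cells need, and R396Q names the variant form by its amino acid change. The GATA2 forms were thus supplied by a virus on top of the cells' own gene, and whether replicates are separate animals or cultures is not in the labels.

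Hemoglobin joins alpha-like and beta-like chains, each holding a heme. In the mouse, Hba-x, Hbb-y and Hbb-bh1 are used mainly by the primitive red cells of the yolk sac, and Hba-a1, Hba-a2 and the adult beta genes by the red cells of the fetal liver and adult marrow. C57BL/6 mice carry the adult beta genes Hbb-bs and Hbb-bt, while Hbb-b1 and Hbb-b2 are the names of their counterparts in other strains. Globin transcription in red cell precursors is driven by GATA1 and KLF1, and GATA2 precedes GATA1 in the progenitors.

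The bases before the start of the members are shown because 6 of the 7 clusters moved together, and they let the promoters of adult and embryonic genes be read side by side. RefSeq promoter sequences (GRCm38.p6) were matched for 6 of the 9 symbols, with none for Hbb-bh1, Hbb-b1 and Hbb-b2. The promoters are thus not those of the clusters that moved. They include Hba-x, which did not pass the test, and lack Hbb-bh1, which rose with wild type. The 250 bases before the annotated start are given 5′ to 3′, and capitals mark GATAA (the core of the sequence bound by GATA factors), CACCC (bound by KLF1 and its relatives), CCAAT and TATAA, on either strand.
Hba-a1, chr11:32283422-32283671, plus strand: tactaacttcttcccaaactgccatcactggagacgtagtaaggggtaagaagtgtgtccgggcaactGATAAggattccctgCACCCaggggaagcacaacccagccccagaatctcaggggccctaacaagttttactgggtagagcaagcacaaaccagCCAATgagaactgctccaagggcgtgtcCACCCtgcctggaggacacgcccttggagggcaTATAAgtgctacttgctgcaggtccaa
Hbb-bs, chr7:103827929-103828178, minus strand: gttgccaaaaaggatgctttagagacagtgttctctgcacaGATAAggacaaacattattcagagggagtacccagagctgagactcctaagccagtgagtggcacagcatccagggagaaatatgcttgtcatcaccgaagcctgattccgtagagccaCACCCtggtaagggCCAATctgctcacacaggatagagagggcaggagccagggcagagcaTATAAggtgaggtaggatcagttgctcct
Hbb-bt, chr7:103813924-103814173, minus strand: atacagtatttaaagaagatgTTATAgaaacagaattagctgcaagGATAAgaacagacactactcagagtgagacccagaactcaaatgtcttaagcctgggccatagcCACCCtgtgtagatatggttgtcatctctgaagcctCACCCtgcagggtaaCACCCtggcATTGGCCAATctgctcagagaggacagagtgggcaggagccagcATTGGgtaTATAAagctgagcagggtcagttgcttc
Hbb-y, chr7:103853208-103853457, minus strand: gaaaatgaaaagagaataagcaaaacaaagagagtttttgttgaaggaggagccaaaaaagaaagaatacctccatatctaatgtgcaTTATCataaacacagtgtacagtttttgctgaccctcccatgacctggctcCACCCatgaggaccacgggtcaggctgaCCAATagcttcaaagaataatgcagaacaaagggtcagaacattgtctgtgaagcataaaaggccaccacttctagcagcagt
Hba-x, chr11:32276350-32276599, plus strand: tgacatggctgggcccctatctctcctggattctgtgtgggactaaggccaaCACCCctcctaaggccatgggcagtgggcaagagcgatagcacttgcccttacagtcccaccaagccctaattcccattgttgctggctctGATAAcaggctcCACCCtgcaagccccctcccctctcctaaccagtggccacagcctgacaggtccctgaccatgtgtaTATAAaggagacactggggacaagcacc
The Hba-a2 promoter shares a run of 247 identical bases with that of Hba-a1. GATAA was present once in each of the 6 promoters, against 22.6% of 32851 mouse promoter windows of the same length, and CACCC in 6 of 6, against 52.0%. CCAAT was present in 5 (33.8% of all windows) and TATAA in 5 (22.8%). Counted from the start, with the last base before it as -1, GATAA began at -182 in Hba-a1, -209 in Hbb-bs, -204 in Hbb-bt and -107 in Hba-x, and in Hbb-y it lay on the other strand from -162. The CCAAT letters are not in the Hba-x window, nor TATAA in that of Hbb-y. No match overlapped another. A match is a description of letters, and binding was not measured here.

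The log2 signal of an array had its lower quartile at 4.54 to 4.60 and its median at 6.06 to 6.19. A cluster below the lower quartile is not shown to be above background, and the number of arrays limits the precision. Of the stem cell and progenitor markers, Kit averaged 9.46 with wild type, 10.5 with R396Q and 12.3 with empty vector, and Cd34 averaged 8.58 with wild type, 12.8 with R396Q and 13.2 with empty vector. Procr, another stem cell marker, averaged 5.04 with wild type, 5.25 with R396Q and 5.16 with empty vector, under the median of every array. Slamf1, on the same stem cell list, went the other way from Kit, at 10.7 with wild type, 10.4 with R396Q and 7.11 with empty vector. Of 15 genes on that list, 3 rose and 4 fell in limma with wild type against empty vector. Over all clusters 4.64% were called higher and 4.35% lower. Gata2 signals were 11.50, 11.24 and 10.94 with wild type, 10.65, 10.72 and 10.53 with R396Q, and 9.87, 9.67 and 9.65 with empty vector. R396Q thus had 0.59 less Gata2 signal than wild type on the log2 scale (SE 0.14, limma adjusted p = 0.0633, and 0.0222 with the replicate number as a block), and the part of that gap in the differences below was not tested.

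Wild type was set against empty vector to ask whether raised GATA2 changed the globins. Both adult alpha clusters, both adult beta clusters, Hbb-y and Hbb-bh1 rose, and Hba-x did not pass the test. That is 6 of 7 members higher and 0 lower, where 4.64% of all clusters were called higher and 4.35% lower (limma, Benjamini-Hochberg adjusted p under 0.05 over 21072 clusters). The groups did not overlap in the same direction for 6 of 7 members and for 10.8% of all clusters. The median change of the 7 was 5.07 on the log2 scale, against -0.01 over all clusters.

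Hba-a1 and Hba-a2, which encode the adult alpha chain, share a pair of clusters. The first (TC1100000336.mm.1) had a log2 signal of 15.42, 14.80 and 15.43 with wild type, 6.85, 6.47 and 6.90 with R396Q, and 6.74, 6.17 and 6.38 with empty vector. The second (TC1100000339.mm.1) had 16.92, 16.08 and 17.02 with wild type, 7.46, 6.77 and 7.54 with R396Q, and 7.26, 6.31 and 6.94 with empty vector. Every wild type array stood more than 7 log2 units above every other array in both clusters, while R396Q and empty vector overlapped. The first cluster rose by 8.79 (443-fold, SE 0.23, limma adjusted p = 2.19e-05) and the second by 9.84 (914-fold, SE 0.36, limma adjusted p = 6.58e-05) with wild type. Within an array the second cluster held rank 92 to 184 of 21072 from the top with wild type, rank 7986 to 9343 with R396Q and rank 8682 to 10108 with empty vector. With R396Q the clusters were 357-fold and 684-fold below wild type (-8.48, SE 0.23, and -9.42, SE 0.36, limma adjusted p = 4.15e-05 and 0.000102).

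The adult beta genes Hbb-bs, Hbb-bt, Hbb-b1 and Hbb-b2, which encode the adult beta chain, also share a pair of clusters, both annotated with all 4 symbols. The first (TC0700003908.mm.1) had 16.24, 14.79 and 15.99 with wild type, 10.31, 8.44 and 9.48 with R396Q, and 11.75, 8.72 and 11.36 with empty vector. The second (TC0700003909.mm.1) had 13.29, 11.99 and 13.41 with wild type, 8.99, 8.28 and 8.57 with R396Q, and 9.34, 8.12 and 9.34 with empty vector. These clusters lay above the array median in all 9 arrays, so a signal for adult beta globin was present without added GATA2. Both adult alpha clusters also lay above the median in all 9 arrays. In the beta clusters replicate 2 was the lowest within every group. The first cluster rose 33.5-fold with wild type (5.07, SE 0.90, limma adjusted p = 0.0162) and the second 15.6-fold (3.96, SE 0.49, limma adjusted p = 0.00410). The call of the first was lost without wild type 1 (4.78, limma adjusted p = 0.0595) or wild type 3 (4.91, adjusted p = 0.0541). Without empty vector 2 its rise was 17.4-fold (4.12). The call of the second was kept without any 1 array. R396Q was 76.9-fold below wild type in the first (-6.26, SE 0.90, limma adjusted p = 0.0101) and 19.5-fold below in the second (-4.28, SE 0.49, adjusted p = 0.00428).

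Hbb-y, the embryonic epsilon-like chain, had 11.93, 8.59 and 11.19 with wild type, 5.28, 5.64 and 5.52 with R396Q, and 4.96, 5.64 and 5.53 with empty vector. All wild type arrays were above the others, but they spanned 3.34 log2 units, with wild type 2 well below the other two, and all other arrays lay under their own median. Hbb-y rose 36.6-fold with wild type (5.19, SE 0.79, limma adjusted p = 0.00914) and R396Q was 34.1-fold below wild type (-5.09, SE 0.79, limma adjusted p = 0.0132). That last call was lost without R396Q 1 (-4.99, adjusted p = 0.0569) or R396Q 2 (-5.17, adjusted p = 0.0505). The size of the rise turned on single wild type arrays, being 22.8-fold (4.51) without wild type 1 and 72.8-fold (6.19) without wild type 2, and R396Q was 21.3-fold and 67.9-fold below wild type without them (-4.41 and -6.08).

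Hbb-bh1, the other embryonic beta-like gene, had 6.19, 5.34 and 6.33 with wild type, 3.96, 4.53 and 4.46 with R396Q, and 4.37, 4.27 and 4.64 with empty vector. It was below the lower quartile on 3 of 3 R396Q arrays and 2 of 3 empty vector arrays, so its fold rests on a signal not shown to be above background. It rose 2.87-fold with wild type (1.52, SE 0.28, limma adjusted p = 0.0203) and R396Q was 3.11-fold below wild type (-1.64, SE 0.28, limma adjusted p = 0.0205). The first call was lost without wild type 1 or 3 or empty vector 1 or 2 (adjusted p = 0.0577 to 0.0699), and the second without wild type 1 or 3 or any 1 R396Q array (adjusted p = 0.0548 to 0.0730).

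Hba-x, the embryonic zeta-like alpha chain, had 3.58, 3.93 and 3.60 with wild type, 3.60, 3.61 and 3.60 with R396Q, and 3.60 on all 3 empty vector arrays. It lay below the lower quartile on all 9 arrays. Its change with wild type was 0.10 (95% confidence interval -0.11 to 0.31, limma adjusted p = 0.561), so a rise like that of the adult alpha clusters was not seen in this gene, which stands beside them on chromosome 11.

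**Figure D1:**
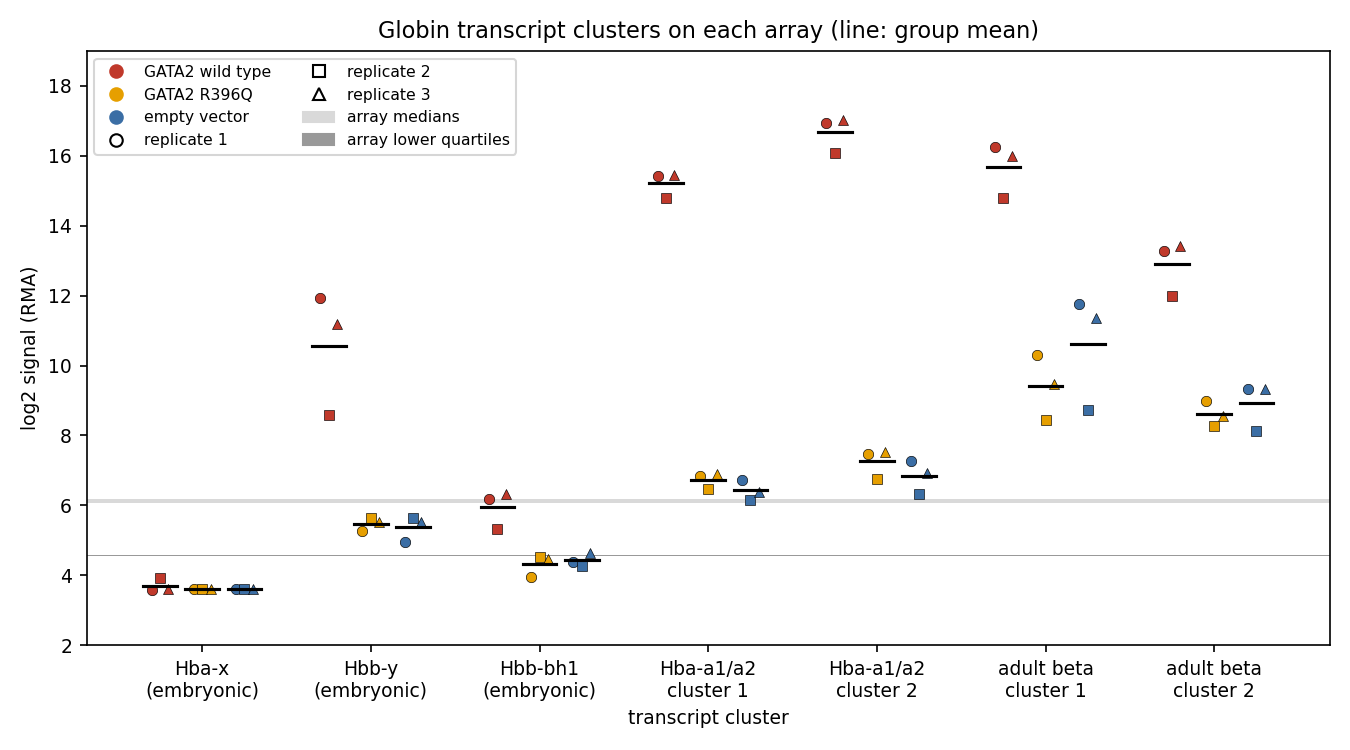
Log2 RMA signal of the 7 globin transcript clusters (x axis) on each array, with GATA2 wild type in red, GATA2 R396Q in orange and empty vector in blue, a symbol for each replicate number, a line at each group mean, and grey bands for the array medians and lower quartiles. The wild type arrays stand above both other groups in 6 clusters (16.08 to 17.02 in the second Hba-a1/Hba-a2 cluster, against 6.77 to 7.54 with R396Q and 6.31 to 7.26 with empty vector), and Hba-x lies near 3.60 throughout.

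The comparison of R396Q with empty vector asked whether the variant raised the globins at all. None of the 7 members passed the test (0 higher, where 0.660% of all clusters were called higher, and 0 lower, where 0.569% were called lower and 1.23% in either direction), 0 had an unadjusted p under 0.05 in limma, and the groups overlapped in 7 of 7, while 14.1% of all clusters did not overlap (6.98% higher and 7.10% lower). The median change was 0.00. For the alpha clusters the change was 0.31 (95% confidence interval -0.23 to 0.85) and 0.42 (-0.44 to 1.27), and R396Q was the higher in each of the 3 replicate numbers (0.12 to 0.52 and 0.20 to 0.60). With the block the intervals were 0.06 to 0.57 and 0.18 to 0.66, and the limma adjusted p was 0.187 and 0.0951. For the adult beta clusters it was -1.20 (-3.32 to 0.92) and -0.32 (-1.48 to 0.84), and in the first of them R396Q was the lower in each number (-1.88 to -0.28, with the block an interval of -2.14 to -0.26 and limma adjusted p = 0.172). Without empty vector 2 its change was -2.14 (4.42-fold). With the block 3 of 7 members thus had an unadjusted p under 0.05, against 19.8% of all clusters, and 0 passed after adjustment. Hbb-y changed by 0.10 (-1.77 to 1.97) and Hbb-bh1 by -0.12 (-0.79 to 0.56), and these intervals do not show that the groups were alike.

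The comparison of R396Q with wild type asked how far the variant differed from the normal form. Of the 7 members, 6 were lower with R396Q, 0 higher and Hba-x did not pass (-0.10, limma adjusted p = 0.661), where 3.08% of all clusters were called lower and 2.67% higher. The groups did not overlap in 6 of 7, against 9.59% of all clusters in that direction. The median change was -5.09, against 0.00 over all clusters. This comparison shares the wild type arrays with that of wild type and empty vector, so the 6 clusters are not separate evidence in each.

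**Figure D2:**
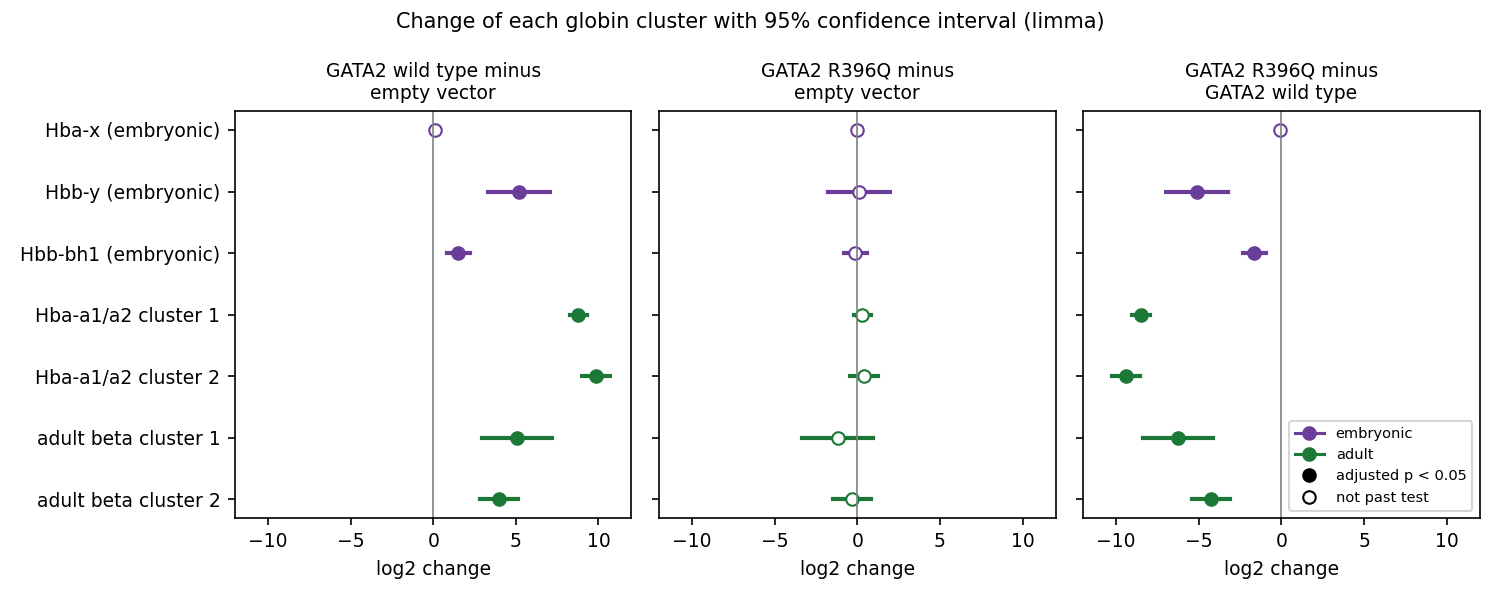
Log2 change of each globin cluster (rows) with its 95% confidence interval from limma in the 3 comparisons, embryonic genes in purple and adult genes in green, filled where the adjusted p was under 0.05. In the left and right panels 6 of 7 clusters lie away from 0 (9.84 and -9.42 in the second Hba-a1/Hba-a2 cluster), and in the middle panel all 7 intervals span 0.

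Each array reads a bulk sample, so more red cell precursors and more globin RNA per cell cannot be told apart. Arrays with the same replicate number deviated together, and the differences within numbers show how even each rise was. Wild type minus empty vector was 8.68, 8.64 and 9.05 for the first alpha cluster and 9.67, 9.76 and 10.1 for the second in numbers 1, 2 and 3. For the adult beta clusters it was 4.49, 6.07 and 4.63 and 3.95, 3.86 and 4.07. These differed little between numbers except in number 2 of the first beta cluster, where empty vector was lowest. For Hbb-y it was 6.98, 2.95 and 5.66 and for Hbb-bh1 1.81, 1.06 and 1.69, so that number 2 had the smallest rise of both embryonic beta genes. Among the wild type arrays, replicate 2 was the lowest in 6 of 7 clusters, the exception being Hba-x.

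**Figure D3:**
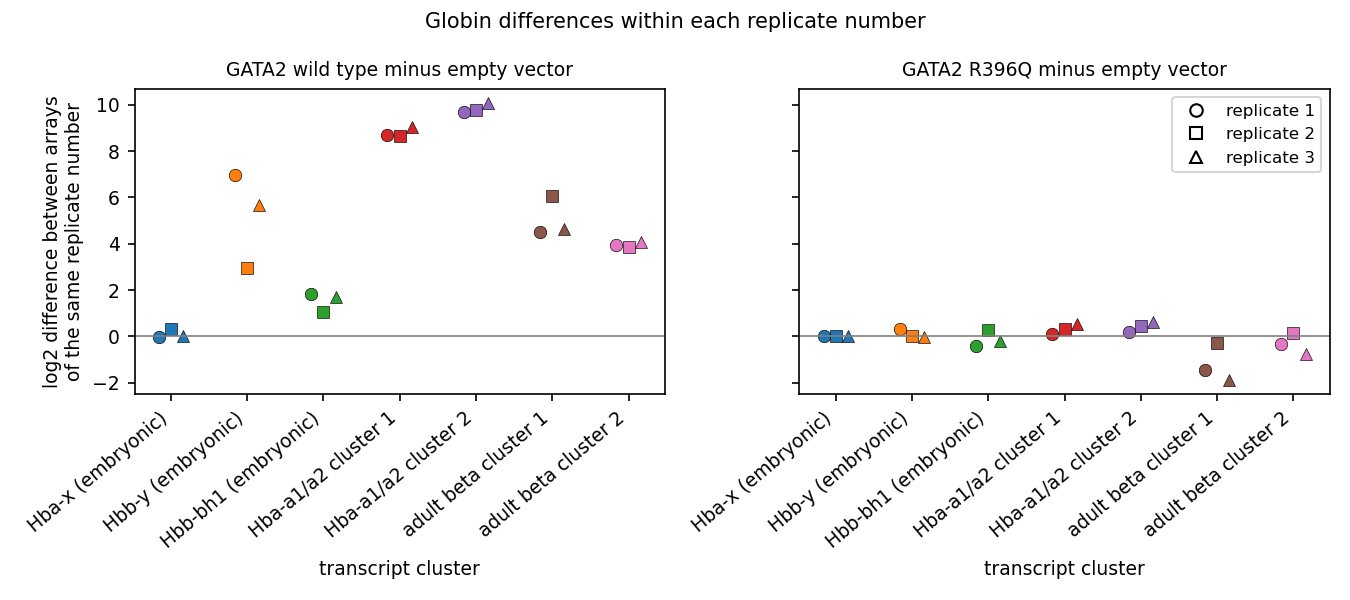
Log2 difference between arrays of the same replicate number for the 7 globin clusters (x axis), wild type minus empty vector on the left and R396Q minus empty vector on the right, with a symbol for each number. On the left the alpha clusters lie at 8.64 to 10.1 and Hbb-y spreads over 2.95 to 6.98, and on the right the points lie between -1.88 and 0.60.

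Embryonic and adult beta genes were set against each other by their changes, since levels of different probe sets cannot be compared. The mean change of Hbb-y and Hbb-bh1 was 1.15 below that of the adult beta clusters with wild type against empty vector (-1.15 on the log2 scale, exact permutation test p = 0.2, 2-sided, adjusted p = 0.3 over 3 comparisons). Within numbers 1, 2 and 3 the difference was 0.17, -2.96 and -0.68, of mixed sign. For R396Q against empty vector it was 0.75 (0.84, 0.19 and 1.23 within numbers, exact p = 0.4, adjusted p = 0.4). For R396Q against wild type it was 1.91 (0.67, 3.15 and 1.90 within numbers, exact p = 0.1, adjusted p = 0.3). There the embryonic minus adult values of the R396Q arrays (-5.03, -3.28 and -4.04) did not overlap those of wild type (-5.70, -6.43 and -5.94), and 0.1 is the smallest p that 3 arrays against 3 allow. Across all 3 groups the exact permutation test over 1680 assignments of the 9 arrays gave p = 0.0893. The value turned on which embryonic gene was taken. With Hbb-y alone as the embryonic gene the difference with wild type against empty vector turned to 0.68 (0.18 for R396Q against wild type). With Hbb-bh1 alone it was -2.99 (-3.90 to -2.41 within numbers), and 3.63 for R396Q against wild type (2.88 to 4.22). Hbb-bh1 lay below the lower quartile on 3 of 3 R396Q and 2 of 3 empty vector arrays. The size of its change is therefore uncertain, here and in the mean with Hbb-y. None of these tests passed the threshold, which pairs of groups this small could not reach.

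The adult alpha clusters moved further than the adult beta clusters, a contrast chosen after the values were seen and given with no test. With wild type against empty vector the mean alpha change was 9.31 and the mean beta change 4.51. The gap was 4.95, 4.23 and 5.22 within numbers 1, 2 and 3. Every number gave alpha the larger change. With empty vector the alpha clusters averaged 6.43 and 6.84 and the beta clusters 10.6 and 8.93. The part of these starting levels and of the different probe sets in the gap was not tested. For R396Q against empty vector alpha changed by 0.37 and beta by -0.76, neither past the test in any cluster.

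Other globin loci on the array were read beside the members. Of 6 other globin family genes (Hbq1a, Hbq1b, Mb, Cygb, Ngb and Adgb), 0 passed the limma test in each comparison. With wild type against empty vector 8.99% of all clusters passed. There 2 of the 6 had an unadjusted p under 0.05, where 22.1% of all clusters did, and the median change was 0.05. Hbq1b, a theta-like gene between Hba-a1 and Hba-a2, had 7.24, 5.92 and 7.71 with wild type, 5.22, 5.46 and 5.09 with R396Q, and 5.14, 5.30 and 5.35 with empty vector. All 3 wild type arrays were above the rest, with a change of 1.69 (SE 0.42, limma adjusted p = 0.0526). Hbq1a changed by 0.77 (SE 0.26, limma adjusted p = 0.135). Further globin-like clusters were chosen after their values were seen. Hbb-bh0 rose 8.81-fold with wild type (3.14, SE 0.60, limma adjusted p = 0.0216) and Hba-ps4 4.72-fold (2.24, SE 0.20, limma adjusted p = 0.00128). Hbb-bh2 (0.22, adjusted p = 0.139) and Hbb-bh3 (0.17, adjusted p = 0.368) did not pass. Whether the probes of these clusters also take up RNA of the members was not tested.

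Genes that flank the globins were read in the same way. By the order of the RefSeq gene table, the 5 protein-coding genes on each side of the alpha globins were taken (10 genes, among them Nprl3, Mpg, Rhbdf1 and Snrnp25). They had changes of -0.91 to 0.50 with wild type against empty vector, and 0 passed the limma test, where 8.99% of all clusters did. Nprl3, whose introns hold the main alpha globin enhancers, averaged 7.11 with wild type, 6.67 with R396Q and 6.68 with empty vector (0.44 with wild type against empty vector, limma adjusted p = 0.115). With the replicate block 2 of the 10 fell with wild type against empty vector, Sh3pxd2b (-0.58, limma adjusted p = 0.0394) and Ubtd2 (-0.91, adjusted p = 0.0234), where 17.4% of all clusters were called with the block. With the block Stk10 was higher with R396Q than with empty vector (0.72, limma adjusted p = 0.0109, 3.00% of all clusters called), and Stk10 (0.52, adjusted p = 0.00584) and Ubtd2 (0.85, adjusted p = 0.0360) were higher with R396Q than with wild type (13.1% called). The 10 protein-coding genes around the beta globins, all olfactory receptors, had changes of -0.48 to 0.08, and 0 passed with or without the block. With wild type against empty vector 17.4% and 8.99% of all clusters did. All 10 lay under the median of every array and 8 fell below the lower quartile on at least 1 array, so they are not shown to be above background. A list of 10 alpha locus genes drawn up with earlier results known gave 0 calls in each comparison. With wild type against empty vector, where 8.99% of all clusters were called, 6 had an unadjusted p under 0.05 (22.1% of all clusters) and the median was 0.21. The 6 did not share a direction. Nprl3, Mpg, Hbq1a and Hbq1b were higher, and Sh3pxd2b and Luc7l were lower. Hbq1a and Hbq1b are also counted among the other globin family genes above. With the block 2 of the 10 were called there, both lower, Sh3pxd2b and Luc7l (-0.33, limma adjusted p = 0.0438), against 17.4% of all clusters. That list held Luc7l and Polr3k, which lie on chromosomes 17 and 2 in the mouse.

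Regulators of globin genes changed in part. Of 34 measured regulators, 9 rose and 2 fell with wild type against empty vector (8.99% of all clusters were called in either direction), and the median change was 0.14. Gata2, the gene whose forms the virus carried, is 1 of the 9, and of the 33 others 8 rose. Whether the Gata2 cluster reads RNA of the virus, of the cells' own gene or of both was not tested. Klf1, the activator of adult beta globin, had 11.34, 9.86 and 10.27 with wild type, 6.12, 5.43 and 5.48 with R396Q, and 6.12, 5.49 and 5.73 with empty vector. It rose 26.2-fold (4.71, SE 0.40, limma adjusted p = 0.00106), and R396Q and empty vector overlapped. Gfi1b, a repressor needed by red cell and platelet precursors, rose 19.1-fold (4.26, SE 0.29), and Zfpm1, the FOG1 partner of GATA factors, 6.93-fold (2.79, SE 0.22). Gata1 had 6.73, 6.29 and 6.75 with wild type, 5.55, 5.46 and 5.41 with R396Q, and 5.75, 5.55 and 5.78 with empty vector, a rise of 1.86-fold (0.90, SE 0.13, limma adjusted p = 0.00774). Runx1 (1.20), Tal1 (1.30), Cbfa2t3 (0.59) and Mbd2 (0.60) also rose, and Lyl1 (-3.01) and Igf2bp3 (-0.85), an RNA-binding protein of fetal cells, fell. Lyl1 is a relative of Tal1, whose protein works in complexes with GATA factors. These 6 genes are named after their values were seen.

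Bcl11a, which represses embryonic and fetal beta-like genes, had 10.58, 10.19 and 9.37 with wild type, 9.20, 8.79 and 7.31 with R396Q, and 9.20, 9.64 and 8.05 with empty vector. The groups overlapped and its change of 1.08 with wild type against empty vector (SE 0.63) did not pass (limma adjusted p = 0.376). With the block it did (adjusted p = 0.0334), and it was then also lower with R396Q than with wild type (-1.61, adjusted p = 0.0142). With R396Q against empty vector, Gata2 (0.90, SE 0.14, limma adjusted p = 0.0394) and Runx1 (1.13, adjusted p = 0.0369) rose and Lyl1 (-2.19, adjusted p = 0.0453) fell, where 1.23% of all clusters were called. There 12 of the 34 regulators had an unadjusted p under 0.05 in limma, against 12.1% of all clusters, and the median change was 0.01. Gfi1b was higher with R396Q than with empty vector but did not pass (1.14, SE 0.29, limma adjusted p = 0.154). With the block, where 3.00% of all clusters were called, Lyl1 was no longer called (adjusted p = 0.0605). Lmo2 (-0.69, adjusted p = 0.0311), which bridges TAL1 and GATA factors, and Igf2bp3 (-0.76, adjusted p = 0.0258) then fell. With R396Q against wild type Kdm1a, a histone demethylase, was higher (0.36) and Klf1 (-4.81), Gfi1b (-3.12), Zfpm1 (-2.30), Tal1 (-1.18) and Gata1 (-1.11) were lower, where 5.75% of all clusters were called in either direction. With the block the counts were 13 up and 3 down with wild type against empty vector (17.4% of all clusters called in either direction). With R396Q against wild type they were 3 up and 11 down (13.1% called).

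Genes on a list for heme supply to globin also changed. That list also holds Hmox1 and Blvrb, which act in heme breakdown. Of 21 measured genes, 10 rose and 1 fell with wild type against empty vector, where 4.64% of all clusters were called higher and 4.35% lower. The median change was 1.00. The one that fell was Alas1 (-1.87), the form of the first heme enzyme that cells of all kinds use, named after its value was seen. None passed with R396Q against empty vector, where 1.23% of all clusters were called. There 5 had an unadjusted p under 0.05 in limma (12.1% of all clusters), and the median was -0.14. With the block 1 fell (3.00% of all clusters called). Against wild type, 8 were lower with R396Q, where 3.08% of all clusters were called lower, and the median was -1.02. With the block 13 were lower and 1 higher, where 13.1% of all clusters were called in either direction. Cpox, which makes protoporphyrinogen in heme synthesis, had 12.79, 12.55 and 12.94 with wild type, 9.32, 9.17 and 9.21 with R396Q, and 9.78, 9.88 and 9.78 with empty vector. Its wild type arrays stood clear of the others, and it rose 7.72-fold (2.95, SE 0.10, limma adjusted p = 5.77e-05). With R396Q against empty vector Cpox was lower and fell just short of the threshold (-0.58, SE 0.10, limma adjusted p = 0.0503, and 0.0600 with the block). Blvrb, biliverdin reductase B, rose 4.33-fold (2.12, SE 0.22) and Fech, which inserts iron into heme, 2.42-fold (1.27, SE 0.15).

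Alas2, the red cell enzyme that starts heme synthesis, had 7.13, 5.96 and 6.69 with wild type, 5.62, 5.62 and 5.46 with R396Q, and 5.51, 5.55 and 5.30 with empty vector. It rose 2.19-fold (1.13, SE 0.27, limma adjusted p = 0.0467), a small change beside those of the adult globins, and its lowest wild type array was again replicate 2. Ahsp, the chaperone of free alpha chains, was not analysed here. Of 5 genes of hemoglobin clearance 1 fell with wild type (4.35% of all clusters were called lower) and 3 had an unadjusted p under 0.05 (22.1% of all clusters did). This was Hp, the hemoglobin-binding haptoglobin, also made by neutrophil precursors, at 9.16, 7.79 and 7.41 with wild type, 11.32, 9.85 and 9.99 with R396Q, and 12.98, 11.47 and 12.63 with empty vector (-4.24, SE 0.64, limma adjusted p = 0.00891). With the block it was also lower with R396Q than with empty vector (-1.98, adjusted p = 0.0494) and higher with R396Q than with wild type (2.27, adjusted p = 0.0141). With the block Hmox2, a heme oxygenase, also fell with wild type against empty vector (-0.52, adjusted p = 0.00923).

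**Figure D4:**
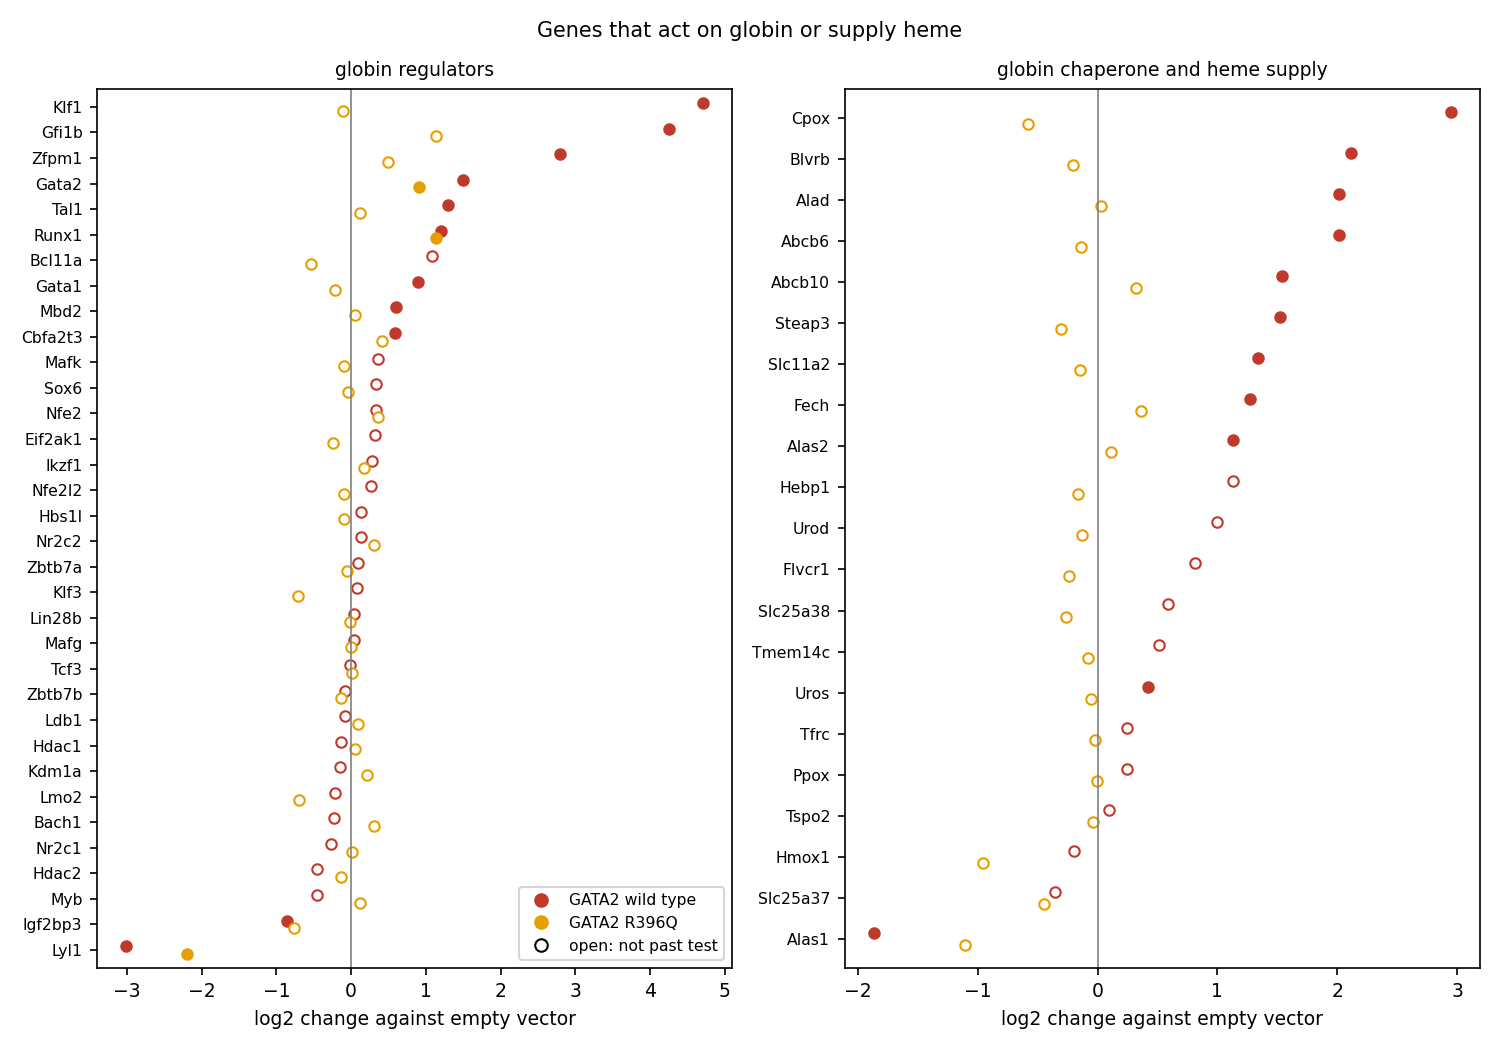
Log2 change against empty vector of each measured globin regulator (left) and gene of the heme supply list (right), with wild type in red and R396Q in orange, filled where the limma adjusted p was under 0.05. Klf1 (4.71) and Cpox (2.95) lead the wild type changes. R396Q has filled points for 3 of 34 regulators and for 0 of 21 heme genes, where 1.23% of all clusters were called.

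Red cell markers moved with the globins. The lists overlap, so their counts are not separate evidence. Among others, Gata1, Klf1, Gfi1b and Tal1 are also counted as regulators, and Alas2, Fech and Blvrb on the heme supply list. Over all clusters 4.64% were called higher with wild type against empty vector and 4.35% lower. Of 14 early erythroid markers, 12 rose with wild type and 0 fell (median change 2.93), with a summed linear signal of 31437 to 54712 with wild type, 3887 to 5645 with R396Q and 2882 to 5095 with empty vector. Car1, carbonic anhydrase 1, an early red cell enzyme, rose 152-fold (7.25, SE 0.36). Of 20 late markers, 10 rose and 1 fell (median 0.91), with sums of 8423 to 11013 with wild type, 6354 to 6927 with R396Q and 6281 to 6721 with empty vector. The one that fell was Xpo7 (-1.21), a nuclear exporter. Hemgn rose 3.63-fold (1.86, SE 0.15) and Ank1, which ties the membrane skeleton to the anion exchanger, 5.09-fold (2.35, SE 0.27). Slc4a1, that anion exchanger and a marker of late red cell precursors, was chosen after its values were seen and stood at 5.64, 4.76 and 4.87 with wild type, 4.72, 4.74 and 4.72 with R396Q, and 4.76, 4.74 and 4.72 with empty vector (0.35, SE 0.21, limma adjusted p = 0.392). It lay under the array median on all 9 arrays.

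With R396Q against empty vector 0 of 14 early and 0 of 20 late markers passed, where 1.23% of all clusters were called. An unadjusted p under 0.05 in limma was found for 1 and 3 of them, and for 12.1% of all clusters. Markers of other cells also moved with wild type, and their part in the globin changes was not tested. Against empty vector 4.64% of all clusters were called higher with wild type and 4.35% lower, and 17.4% in either direction with the block. Of 12 megakaryocyte markers 9 rose, with sums of 96084 to 118538 with wild type, 23798 to 32725 with R396Q and 16498 to 26225 with empty vector. Of 17 mast cell and basophil markers 9 rose and 0 fell, with sums of 261566 to 483063 with wild type, 196287 to 242152 with R396Q and 54278 to 124085 with empty vector, with Mrgprb1 below the lower quartile in all groups. Of 15 neutrophil markers 5 fell and of 15 monocyte and macrophage markers 5 fell (11 and 7 with the block), with neutrophil sums of 13271 to 72812 with wild type, 125557 to 438042 with R396Q and 272053 to 573486 with empty vector. Monocyte sums were 2888 to 40739 with wild type, 25031 to 77232 with R396Q and 83652 to 191630 with empty vector. Of 13 lymphoid markers 0 changed in limma with wild type against empty vector (0 at an unadjusted p under 0.05, against 22.1% of all clusters). Cd3e and Cd4 were below the lower quartile in all groups. Of 15 genes on the stem cell list 3 rose (Slamf1, Mllt3 and Vwf, which is also on the megakaryocyte list) and 4 fell (Cd34, Kit, Flt3 and Cd48). That list also holds markers of progenitors past the stem cell, such as Cd48 and Flt3, so these falls are not read as a loss of stem cells.

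The genes most like the globins in pattern were ranked by Pearson correlation over the 9 arrays among 4068 clusters with 1 symbol and a range of at least 1. The 3 groups set most of this likeness, so it is a description. Those nearest to the adult alpha clusters were Car1 (r = 0.995), Cldn13 (0.994), Vwf (0.994), Mfsd2b (0.993), Nepn (0.992), Car2 (0.991), Add2 (0.991) and Asb2 (0.990). Of these, Cldn13 and Nepn averaged 3.90 and 4.03 with R396Q and 4.04 and 4.24 with empty vector, under the lower quartile of every array. Those nearest to Hbb-y, which had the wide spread among wild type arrays, were Ank1 (0.994), Ephx2 (0.989), Abcg4 (0.988), Col18a1 (0.986), Ubash3b (0.986), Gnaz (0.986), Mast4 (0.984) and Arhgap23 (0.981). Ank1 was 7.82, 6.76 and 7.75 on the wild type arrays, with the same array lowest as for Hbb-y. Ephx2 averaged 4.50 with R396Q and 4.51 with empty vector, under the lower quartile of every array.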

How the data were processed

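The deposited table gives a log2 value for each transcript cluster on each of 9 arrays. The authors obtained these log2 values by robust multiarray average (RMA), which corrects background, normalizes between arrays and sums probes, in Expression Console, per the submitters' processing notes. Its version and the genome build are not given in the sources used here. Probe identifiers are of a later design than the Mouse Exon 1.0 ST array of the labels.

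Symbols came from the array annotation, and 418 were updated through a RefSeq gene table (18236 clusters matched). Of 21072 clusters, 18992 had 1 symbol, 1390 several and 690 none. Lists used clusters with 1 symbol, the brightest per symbol.

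Clusters were tested with limma 3.58.1 in R 4.3.3 (1 mean per group, 6 residual and 0.956 prior degrees of freedom, 2-sided, Benjamini-Hochberg over 21072 clusters), and the code was tested on simulated data. Members and lists were chosen with earlier results of these data known. Named genes were the members, Gata2, Gata1, Klf1, Bcl11a, Ahsp, Alas2, the 3 called members of a list with the smallest p, and the 8 most like in pattern, of which a part is printed.

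Deviations from the group means correlated between arrays of 1 replicate number (r of 0.451 to 0.693 in 9 pairs, against -0.537 to -0.0900 in 18 other pairs), so the number was a block in an alternative fit. The p-values measure the spread between these samples, which may be technical. Other alternatives were fits on the compared groups, trend and robust options, array weights, median subtraction, quantile normalization, filters on dim or tied clusters, and each array left out.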

Additional observations from a re-analysis of the deposited data

How the results depend on the processing

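With the replicate block the same number of globin clusters passed limma (6, 0 and 6 in wild type against empty vector, R396Q against empty vector and R396Q against wild type), while counts over all clusters were 3667, 632 and 2750, against 1894, 259 and 1211 without it. The block changed no call of a globin cluster. With only the compared groups in the fit the counts over all clusters were 1026, 94 and 772, and those of globin clusters 3, 0 and 4. The calls of both alpha clusters and the second beta cluster were kept there, and adjusted p was 0.0607 for the first beta cluster, 0.0546 for Hbb-y and 0.0675 for Hbb-bh1 with wild type against empty vector, and 0.0664 for Hbb-y and 0.0813 for Hbb-bh1 with R396Q against wild type. Leaving out each array in turn gave 1285 to 1724, 85 to 304 and 650 to 1153 clusters, and 4 to 6, 0 and 4 to 6 globin clusters. For R396Q against empty vector the counts were 98, 85 and 109 without R396Q 1, 2 or 3 and 165 without wild type 3, and for R396Q against wild type 650, 702 and 788 without R396Q 1, 2 or 3. The cause was not tested. In both comparisons with wild type the alpha clusters kept their call in all 18 alternatives, with adjusted p up to 0.00421. Under the scaling and filter alternatives every globin cluster that was still tested kept its side of the threshold. Hbb-bh1 passed the filter of the dimmest 30%, and Hbb-y that of the dimmest 50%, through their wild type signal. Their means were 5.95 and 10.57 with wild type, 4.31 and 5.48 with R396Q, and 4.43 and 5.38 with empty vector. Those filters thus drew on the tested difference, so the calls these genes kept there are not a separate check. The difference between embryonic and adult beta change ran from -1.66 to -0.45, 0.25 to 1.45 and 1.49 to 2.37 when 1 array was left out, with 0.05 to 0.246 for the exact p over 3 groups. It reversed to 0.68 for wild type against empty vector with Hbb-y alone. Paired by replicate number as a block, an exact sign-flip test gave p = 0.5, 0.25 and 0.25, where 0.25 is the smallest 3 pairs allow, so that it could not pass. An alternative limited to beta clusters with a single symbol gave no value, since both adult clusters hold several. Signals near the lower quartile (Hba-x, Hbb-bh1) limit what those genes can show.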
